A study of Mus musculus with 96 samples.

Results

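The genes described here are 10 regulators of DNA methylation and of Polycomb silencing: Dnmt1, Uhrf1, Hells, Dnmt3a, Dnmt3b, Tet2, Tet3, Ezh2, Suz12 and Eed. They were chosen by name, from what their products do, and matched by gene symbol, which found all 10 among the 40202 genes of the count files. The study sequenced 96 single cells of C10, an immortalised mouse lung line, with 48 untreated control cells and 48 cells given RO-3306 for 36 h at a labelled dose of 10 nM, which is low for this compound and was taken as labelled. RO-3306 is a small molecule sold as an inhibitor of CDK1, the kinase that starts mitosis (no measure of CDK1 activity is included). The series title names nanoSPLITS, in which the lysate of a cell is divided so that RNA and protein can both be measured, and the protein side was not analysed here. Both groups are the same line and differ, by their labels, in the treatment alone. The labels name no separate cultures, so each treatment was handled as 1 sample, with no p-value, and the cells within it are not replicates.

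The line is labelled as alveolar type II epithelium, but 5 of 8 markers of that type were absent. Sftpa1, Sftpc, Sftpd, Slc34a2 and Napsa had no count in any kept cell, and the 8 alveolar type II markers together gave 9.61 CPM for control and 5.40 CPM for RO-3306 (CPM, counts scaled to a group total of 1e+06). Another gene overlaps 47.8% of the span of Napsa, where the counting may leave reads out. The 8 mesenchymal markers summed to 5630 and 2531 CPM, with Col1a1 in 29 of 29 and 37 of 37 cells, so the cells are called C10 cells below. Of the 8 alveolar type II markers 1 reached 5 CPM, and any of them was counted in 13 of 29 control and 16 of 37 RO-3306 cells. Alveolar type I markers gave 58.8 and 45.8 CPM, in 20 of 29 and 32 of 37 cells, and other epithelial markers 1.78 and 0.978 CPM. Endothelial markers stayed at 0.127 and 0.102 CPM and macrophage markers at 32.1 and 15.9 CPM. The part that the lower mesenchymal markers have in the values of the methylation and Polycomb genes was not tested.

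In mammalian cells, methyl groups on CpG sites are copied to the new DNA strand at each replication by DNMT1. UHRF1 brings it to hemimethylated sites, and the remodeller HELLS opens chromatin for both. DNMT3A and DNMT3B set new methylation, while TET enzymes oxidise it as the first step of removal. Polycomb repressive complex 2 (PRC2) methylates histone H3 at a lysine that marks silenced genes, with EZH2 as the enzyme and SUZ12 and EED as the subunits it needs. Several of these genes are known to be transcribed most in dividing cells under E2F factors, the regulators of genes for DNA replication.

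The promoters of 5 of the 10 genes held letters of the E2F type, and these stretches are printed because they show what Dnmt1, Uhrf1, Hells, Ezh2 and Suz12 have in common beyond the roles by which they were chosen. The letters searched were TTTCCCGC, TTTGGCGC, TTTCGCGC and TTTGCCGC on both strands, in windows of 300 bases from RefSeq (build GRCm38.p6) that begin 250 bases before each annotated start. A match was present in 2.26% of 32851 promoters, in 5.13% of the 7559 genes with a promoter in the table and 5 CPM or more on average here, and in 11 of 30 S phase genes (36.7%). All 10 genes were found in the table. Each stretch below runs 5′ to 3′ on the gene's own strand, from 250 bases before the start to 30 bases after it, in lower case with the match in capitals. Where the capitals read GCGCGAAA, the match is on the other strand.
Dnmt1, chr9:20952594-20952873, minus strand: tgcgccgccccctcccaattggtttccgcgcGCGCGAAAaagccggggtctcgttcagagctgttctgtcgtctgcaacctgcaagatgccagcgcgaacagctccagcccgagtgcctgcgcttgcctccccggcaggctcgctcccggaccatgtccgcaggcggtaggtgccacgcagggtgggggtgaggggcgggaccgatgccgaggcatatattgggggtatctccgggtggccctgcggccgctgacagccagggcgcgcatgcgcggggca
Uhrf1, chr17:56304063-56304342, plus strand: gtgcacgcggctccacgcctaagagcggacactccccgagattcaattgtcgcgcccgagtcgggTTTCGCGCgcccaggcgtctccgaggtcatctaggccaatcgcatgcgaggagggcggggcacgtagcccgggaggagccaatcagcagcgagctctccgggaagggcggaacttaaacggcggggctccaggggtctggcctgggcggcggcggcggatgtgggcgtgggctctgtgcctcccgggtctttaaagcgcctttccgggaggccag
Hells, chr19:38930740-38931019, plus strand: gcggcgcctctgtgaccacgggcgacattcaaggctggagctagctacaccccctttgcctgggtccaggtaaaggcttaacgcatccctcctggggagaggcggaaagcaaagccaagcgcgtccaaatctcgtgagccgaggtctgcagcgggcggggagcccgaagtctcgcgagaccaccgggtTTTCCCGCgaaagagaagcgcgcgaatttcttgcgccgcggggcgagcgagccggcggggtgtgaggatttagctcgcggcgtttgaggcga
Ezh2, chr6:47595001-47595280, minus strand: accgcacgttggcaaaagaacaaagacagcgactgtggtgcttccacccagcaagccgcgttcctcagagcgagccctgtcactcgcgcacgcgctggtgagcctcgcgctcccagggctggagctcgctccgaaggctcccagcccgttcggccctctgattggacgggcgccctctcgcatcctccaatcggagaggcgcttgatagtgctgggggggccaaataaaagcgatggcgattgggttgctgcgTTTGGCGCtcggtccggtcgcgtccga
Suz12, chr11:79992856-79993135, plus strand: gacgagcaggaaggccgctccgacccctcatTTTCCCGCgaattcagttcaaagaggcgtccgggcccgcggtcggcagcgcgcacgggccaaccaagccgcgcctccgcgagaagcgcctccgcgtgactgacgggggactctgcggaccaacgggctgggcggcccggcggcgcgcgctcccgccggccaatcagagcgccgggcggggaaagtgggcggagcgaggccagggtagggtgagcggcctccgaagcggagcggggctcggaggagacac

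The match began 219 bases before the start in Dnmt1, 185 before it in Uhrf1, 62 before it in Hells and 219 before it in Suz12. In Ezh2 it began at base 4 after the start. Dnmt1 has 3 promoters in the table and only the one printed held a match, with another match 34 bases after its start, outside the printed stretch. The distance given for Dnmt1 is to that start only. Another of its 3 annotated starts lies ahead of the printed stretch. The stretch thus falls within the gene as read from there and may hold transcribed bases. Which start these cells use was not tested. The promoter windows of Dnmt3a, Dnmt3b, Tet2, Tet3 and Eed held none of these letters. Shorter letters of the CHR type (TTTGAA or TTCGAA, both strands), known from promoters of mitotic genes, were in 4 of 10 genes (Dnmt1, Dnmt3b, Suz12 and Eed) against 21.7% of all 27025 genes in the table. In Suz12, which held both kinds in 1 window, the matches began 219 and 203 bases before the start and did not overlap. A match describes the letters only and is not evidence that a factor binds there.

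Libraries ranged from 5 to 6457215 counts in control and from 2320 to 5321880 in RO-3306 cells. Cells were kept from 50000 counts and 1000 detected genes upward, which left 29 control and 37 RO-3306 cells with median totals of 1753427 and 2234309 counts. The titles carry a set letter from A to D whose meaning is not given. Control kept 10, 8, 6 and 5 cells in sets A, B, C and D, and RO-3306 kept 10, 10, 11 and 6. A median of 5177 genes was counted per control cell and 6951 per RO-3306 cell. In 1 RO-3306 cell, B3, 56.0% of counts were mitochondrial. The 9374 genes whose mean reached 5 CPM had a median log2 ratio (RO-3306 over control) of -0.22, with quartiles of -0.98 and 0.43, and TMM or DESeq2 scaling moves ratios up by at most 0.21 or 0.24, and by less for low genes because of the added 1 CPM.

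Across the 10 genes, RO-3306 cells had lower pooled levels of most but no uniform shift. Together the genes made up 530 CPM of control and 372 CPM of RO-3306 counts. Uhrf1 was 2.61 times and Tet3 5.72 times lower in RO-3306 cells, Ezh2 was at 0.535 of its control level, and Suz12 was 1.5 times higher. Dnmt1, Hells and Eed lay within 1.5-fold of control. Of the 10, 7 reached a mean of 5 CPM, and 6 of these had a log2 ratio below 0 and 1 above, with a median of -0.42 on the log2(CPM + 1) scale. The median of all genes was itself below 0, at -0.22. Dnmt1 at -0.21, Eed at -0.10 and Suz12 at 0.57 lay above that median. Past 2-fold, 2 of 7 were lower (Uhrf1 and Tet3), where 24.2% of all genes were, and 0 of 7 were higher, where 12.2% of all genes were. With the same sign in all 4 sets as well, 0 of 7 were lower or higher past 2-fold, against 6.43% and 7.23% of all genes. TMM scaling changes the split over all genes to 19.3% lower and 15.8% higher, and DESeq2 scaling to 18.8% and 16.3%, with the same 2 members lower. Eed then moved above 0, to 0.11 with TMM and 0.13 with DESeq2, and Dnmt1 to 0.02 with DESeq2. The 2 of 7 amount to 28.6%, close to the share of all genes.

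**Figure D1:**
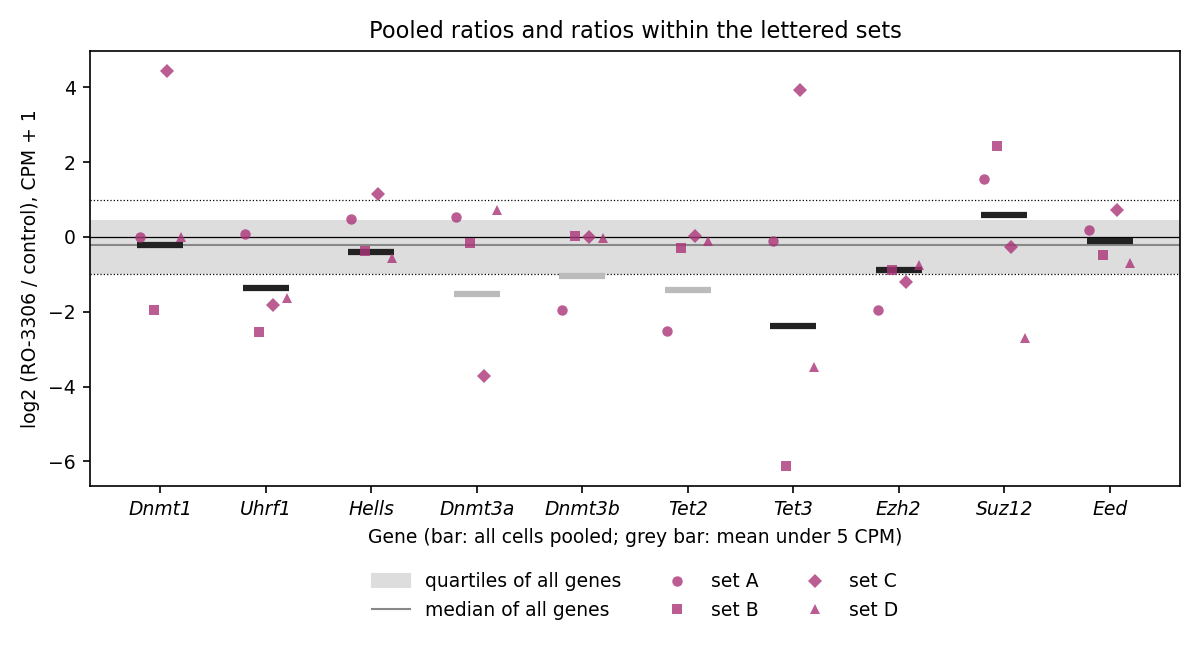
Log2 ratio of RO-3306 to control (CPM + 1) for each of the 10 genes: the bar is the value over all kept cells, in grey where the mean was under 5 CPM, and the symbols are the values within sets A to D. The grey band spans the quartiles of all genes (-0.98 to 0.43), dotted lines mark 2-fold, and only Ezh2 among the 7 genes with a black bar has all 4 symbols below 0.

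Maintenance methylation is represented by Dnmt1, Uhrf1 and Hells, whose levels added up to 219 CPM for control and 133 CPM for RO-3306 (log2 ratio -0.72). Within sets A to D the ratio of this sum was 0.28, -1.16, -0.08 and -1.24, so set A went the other way. Uhrf1 made up most of this difference.

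Uhrf1 (chr17:56610337-56630486, plus strand; gene positions here and below are on GRCm39) encodes the reader of hemimethylated CpG sites that recruits DNMT1. Per cell it ranged from 0 through a median of 48.5 to 499 CPM in control and from 0 through 14.1 to 330 CPM in RO-3306 cells. The highest control cell was B10 and the highest RO-3306 cell A11, and the ranges overlapped. Pooled levels were 95.4 CPM (95% counting interval 93.0 to 97.8) and 36.6 CPM (35.3 to 37.8), a log2 ratio of -1.36. The ratio was 0.08, -2.53, -1.83 and -1.63 in sets A to D, so Uhrf1 was lower in sets B, C and D and not in A. Without set B the pooled value was -0.94, short of 2-fold. Nearly as many cells held the transcript in both groups, 20 of 29 and 24 of 37. At equal depth, with each cell thinned to 639000 reads, the level averaged over cells with a count was 140 CPM in 17 of 25 control cells and 55.4 CPM in 21 of 34 RO-3306 cells. The lower pooled level of Uhrf1 therefore lay mainly in how much transcript the positive cells held. Over all genes detected in both groups the same quantity had a median log2 ratio of -0.57.

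Dnmt1 (chr9:20818501-20871184, minus strand), the maintenance methyltransferase itself, was sparse. Its lowest and median cells were at 0 in both groups, and the highest was control cell B1 at 254 CPM and RO-3306 cell B3 at 842 CPM. B3 is the cell rich in mitochondrial counts. A count was present in 8 of 29 control and 17 of 37 RO-3306 cells, but in 7 of 25 and 11 of 34 at equal depth. Pooled Dnmt1 was 31.7 CPM (30.3 to 33.1) for control against 27.2 CPM (26.2 to 28.3) for RO-3306, a log2 ratio of -0.21, close to the median of all genes. Set B gave -1.95 and set C 4.45, sets A and D gave 0.01 and 0.00, and in set D no cell of either group had a count. The direction of Dnmt1 therefore rests on which set is used: the pooled value was 1.11 without set B and -1.55 without set C. The mean over cells, which weights each cell equally, gave 1.23. Without B3 this mean gave 0.25 and the pooled value was -0.35.

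Hells (chr19:38913282-38958914, plus strand), a chromatin remodeller needed for methylation of repeats, was found in 19 of 29 control and 27 of 37 RO-3306 cells. It ranged from 0 through a median of 17 to 550 CPM in control and from 0 through 35.1 to 546 CPM in RO-3306 cells. The median cell was thus higher with RO-3306 while the pooled level was lower, at 68.8 CPM (67.2 to 70.5) against 92.1 CPM (89.8 to 94.5). Control cell B6 alone held 37.9% of the control counts of Hells. Without the cell holding most counts in each group the log2 ratio moved from -0.42 to -0.19, and at equal depth it was 0.37. In sets A to D it was 0.47, -0.39, 1.15 and -0.56, which gives no single direction.

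The de novo methyltransferases were close to absent. Dnmt3a (chr12:3851559-3964443, plus strand) had a count in 7 of 29 control and 7 of 37 RO-3306 cells, with medians of 0 and highest cells of 442 and 25.2 CPM. A single control cell, C2, held 95.7% of the 311 control counts. Pooled Dnmt3a was 4.72 CPM (4.20 to 5.26) against 0.987 CPM (0.799 to 1.22), a log2 ratio of -1.52 that became 0.20 without the top cell of each group. Genes that overlap it (Dnmt3aos and Gm31623) cover 16.2% of its span, and how the counting treated reads there is not given.

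Dnmt3b (chr2:153491332-153529650, plus strand) was counted in 2 cells of each group. All but 0.5 of its 71.5 control counts came from cell A8, at 53.2 CPM, and RO-3306 cells held 1.5 counts in all, with a highest cell of 0.225 CPM. At equal depth it was counted in 1 of 25 control cells and 0 of 34 with RO-3306, and 0 of 34 allows a share of up to 8.82%. At this depth no difference in Dnmt3b between the groups could be read.

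The TET genes were also rare. Tet3 (chr6:83339355-83434190, minus strand), an oxidase of methylated cytosine, was detected in 7 of 29 control and 5 of 37 RO-3306 cells, with medians of 0. Its highest cells were at 275 CPM (control D8) and 182 CPM (RO-3306 D12), and these ranges overlapped. Pooled Tet3 was 43.8 CPM (42.3 to 45.5) for control against 7.67 CPM (7.12 to 8.25) for RO-3306, a log2 ratio of -2.37. Few cells carried this difference: B6 gave 37.2% of the control counts and C6 53.5% of the RO-3306 counts. In sets A to D the control level was 0.0807, 68.7, 0 and 151 CPM and the RO-3306 level 0, 0, 14.2 and 12.7 CPM, so set C went against sets B and D. The pooled log2 ratio stayed between -3.22 and -1.37 in the 17 alternatives that give it per gene, yet at equal depth it rested on 5 of 25 and 3 of 34 cells.

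Tet2 (chr3:133169438-133250882, minus strand), the second oxidase, was counted in 7 of 29 and 8 of 37 cells at very low levels, with medians of 0 and highest cells of 17.1 and 1.19 CPM. Pooled levels were 1.92 CPM (1.6 to 2.29) and 0.0943 CPM. Control cell A3 held 55.3% of the control counts, and outside set A the levels of both groups were under 0.3 CPM. Its log2 ratio was -1.41 with all cells and -0.14 without set A.

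The PRC2 core added up to 260 CPM for control and 231 CPM for RO-3306, a log2 ratio of -0.17, and its members moved in different directions. In sets A to D the sum gave -0.13, 0.37, -0.23 and -1.33.

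Ezh2 (chr6:47507208-47572309, minus strand), the methyltransferase of the complex, was the member with the steadiest difference. Per cell it ran from 0 through a median of 13.9 to 496 CPM in control and from 0 through 11.6 to 390 CPM in RO-3306 cells, with the highest cells in set C in both groups. The ranges overlapped and the medians were close. Pooled Ezh2 was 99.1 CPM (96.7 to 102) against 53.0 CPM (51.5 to 54.5), a log2 ratio of -0.89. In sets A to D, control held 86.1, 92.3, 134 and 129 CPM and RO-3306 held 21.5, 49.9, 57.1 and 75.5 CPM, so each set was lower with RO-3306. Over all genes, 10.3% were below 0 in all 4 sets and 13.1% above 0 in all 4, against 1 and 0 of the 7 members. Measured against the all-gene median of each set, Ezh2 was still lower in all 4, at -1.88, -0.62, -1.62 and -1.01 relative to it. On this measure Tet2, with a mean under 5 CPM, was also lower in all 4. The pooled value of Ezh2 lay between -1.04 and -0.58 in the 17 alternatives. Detection did not go with it: at equal depth Ezh2 was counted in 16 of 25 control and 22 of 34 RO-3306 cells, whose mean was 132 and 86.6 CPM. Genes in general were also lower per positive cell, with a median log2 ratio of -0.57.

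Suz12 (chr11:79883932-79924949, plus strand), which holds the complex together, was the only one of the 7 with a pooled ratio above 0. Its cells ran from 0 through a median of 2.08 to 392 CPM in control and from 0 through 19.2 to 605 CPM in RO-3306 cells. It had the most positive cells of any member in control, 23 of 29, and tied with Eed in RO-3306, 31 of 37, though many held only a few counts. Pooled Suz12 was 49.5 CPM (47.8 to 51.2) and 74.1 CPM (72.4 to 75.9), a log2 ratio of 0.57. Sets disagreed: 1.56 in A, 2.44 in B, -0.28 in C and -2.70 in D. Without set B the pooled value was -0.55 and without set D it was 1.62. In 55.4% of all libraries with a Suz12 count that count was fractional, which means that it includes reads placed at more than 1 site of the genome.

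Eed (chr7:89603862-89630184, minus strand), the subunit that reads the mark PRC2 leaves, had a nearly equal pooled level in the groups. Cells ran from 0 through a median of 32.6 to 448 CPM in control and from 0 through 79.8 to 355 CPM in RO-3306 cells. Pooled Eed was 111 CPM (109 to 114) against 104 CPM (102 to 106), a log2 ratio of -0.10, and 0.18, -0.49, 0.73 and -0.70 in sets A to D. It was counted in 16 of 29 control cells (55.2%) and in 31 of 37 RO-3306 cells (83.8%). At equal depth the shares were 56.0% of 25 cells (exact binomial 95% interval 34.9% to 75.6%) and 76.5% of 34 cells (58.8% to 89.3%), intervals that overlap. The mean over cells with a count went the other way, 196 against 135 CPM. Genes overall did the same, with a median share of 40% and 55.9% and a median log2 ratio of -0.57 per positive cell.

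**Figure D2:**
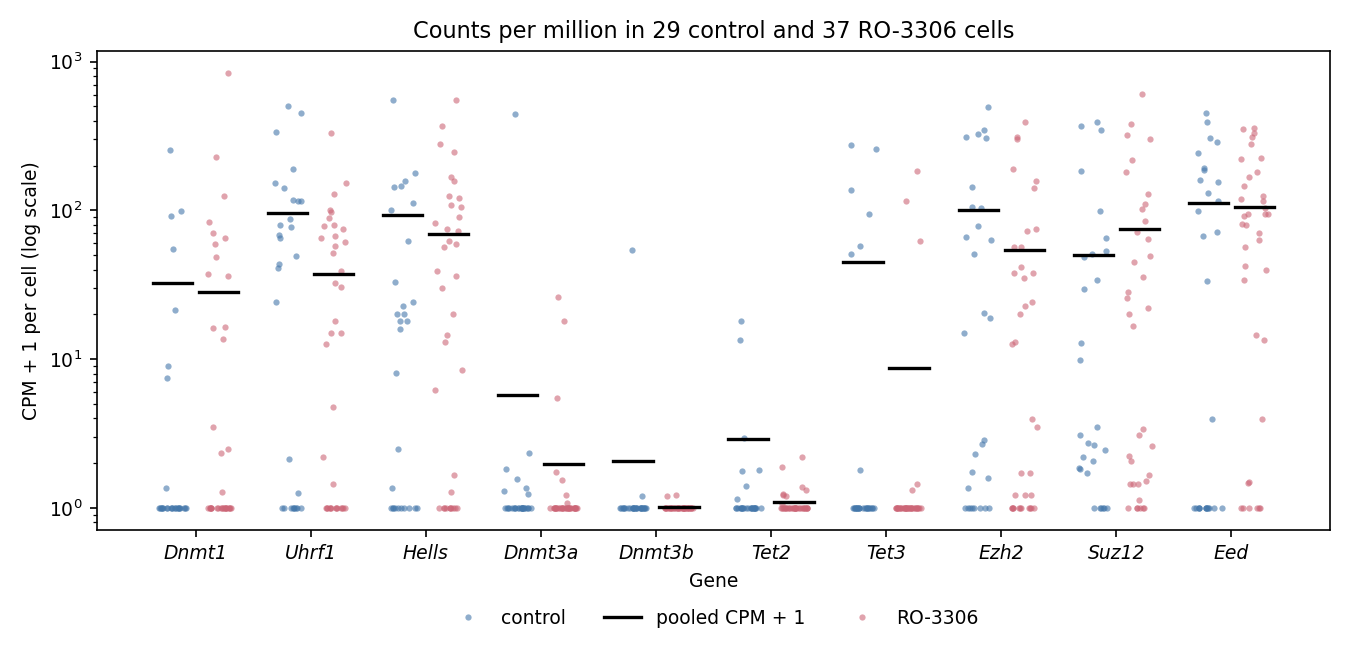
CPM plus 1 in each of the 29 control (blue) and 37 RO-3306 (red) cells for the 10 genes, on a log axis; each point is a cell and black bars are pooled levels. Points on the bottom line are cells with no count, and every gene has such cells in both groups, so the groups overlap for all 10.

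Detection at equal depth can be read against all genes. The median gene from 5 CPM upward was found in 40% of control and 55.9% of RO-3306 thinned cells, and 72.0% of such genes had the larger share in RO-3306. Of the 7 members of at least 5 CPM, 4 did (Dnmt1, Hells, Ezh2 and Eed), and none of Dnmt3a, Dnmt3b and Tet2 did. Uhrf1 (68.0% and 61.8%) and Suz12 (76.0% and 73.5%) were found in slightly smaller shares of RO-3306 cells. For all 10 genes the binomial intervals of the groups overlapped. A thinned cell of either group held a median of 4 of the 10 genes, from 1 to 9 in control and from 1 to 7 in RO-3306 cells. The transcripts of all of Dnmt1, Uhrf1 and Hells were found together in 6 of 25 and 6 of 34 thinned cells, and those of all of Ezh2, Suz12 and Eed in 7 of 25 and 15 of 34.

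**Figure D3:**
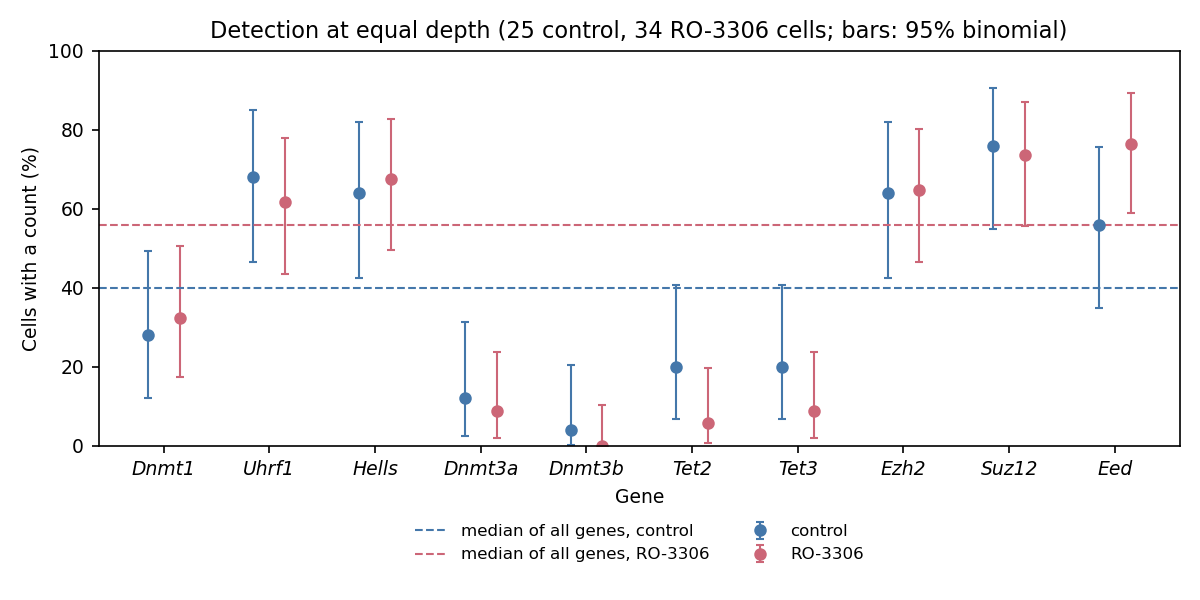
Percent of thinned cells with a count of each gene, in 25 control (blue) and 34 RO-3306 (red) cells, with exact binomial 95% intervals for counting error; dashed lines are the medians of all genes, 40% and 55.9%. The intervals of the 2 groups overlap for each gene, and Eed has the widest gap between groups, 56.0% against 76.5%.

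Levels of different genes were compared per kilobase of mRNA. In control cells the order was Eed at 53.7, Ezh2 at 35.6, Uhrf1 at 26.6, Hells at 15.7 and Suz12 at 11.3 CPM per kb. Tet3 followed at 7.38 and Dnmt1 at 5.90, and Dnmt3a, Dnmt3b and Tet2 lay at 0.487, 0.251 and 0.209 CPM per kb. Over the 4 sets each of these genes overlapped the range of its neighbour in the order. In RO-3306 cells Eed stayed first at 50.1 CPM per kb, and its range over sets (39 to 61.9) lay above that of Ezh2 (7.70 to 27.1), the next at 19. Suz12 followed at 17, Hells at 11.7, Uhrf1 at 10.2, Dnmt1 at 5.07 and Tet3 at 1.29 CPM per kb, each overlapping its neighbour. Dnmt3a, Tet2 and Dnmt3b were last at 0.102, 0.0103 and 0.00374 CPM per kb. Reads were counted over introns too, so a level per kb of mRNA is approximate.

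Ratios of long transcripts were lower over all genes, with medians from -0.90 to 0.26 over 20 bins of mRNA length. With the median of genes of like length subtracted, the median of the 7 genes was 0.062. Tet3 then stood at -1.6, Uhrf1 at -0.86, Ezh2 at -0.64 and Suz12 at 1.11. Uhrf1 thereby fell short of 2-fold and Suz12 passed it.

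Between cells of a group, the genes followed each other little. Across 25 thinned control cells, Uhrf1 had a Spearman correlation of 0.52 with the summed S phase list and 0.54 with Dnmt1, and both were counted in 7 of these cells. In 34 RO-3306 cells the same correlations were 0.22 and -0.10. Hells and Suz12 gave 0.02 in control and 0.49 in RO-3306 cells. The cells share a library chemistry, the counts are sparse, and the values are descriptions only. The genes most like the summed Dnmt1, Uhrf1 and Hells level, by the mean of the correlations in the 2 groups over 3697 genes of at least 50 CPM, were Marcks (0.52), Cpne8 (0.51), Tbc1d31 (0.50), Tmx3 (0.48) and Celf1 (0.47). The median gene reached 0.07 and the 95th percentile of genes 0.30. Tbc1d31 and Tmx3 were counted in only 7 and 6 of the 25 control cells. Among the top 100 of the 3697 genes was 1 of 24 S phase genes.

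The partners of these enzymes were taken as lists and counted in the same way. Their counts past 2-fold stand beside 24.2% lower and 12.2% higher over all genes. Of 7 partners of maintenance methylation, all measured, 5 were lower past 2-fold and 0 higher, with a median log2 ratio of -1.56, and 1 of the 5 kept its sign in all 4 sets. This was Usp7, a deubiquitinase that binds DNMT1 and UHRF1, which stood at 34.1 CPM against 4.11 CPM with RO-3306 (log2 ratio -2.78, 15 of 29 and 16 of 37 cells). Pcna, the replication clamp, was at -0.38. For de novo methylation, 4 of 5 partners were lower and 1 higher past 2-fold, with a median of -2.0 and 0 with the same sign in all sets. Of 10 demethylation partners, 7 were measured, 3 lower and 2 higher. Smug1, a DNA glycosylase, was higher in all 4 sets, at 40.4 against 6.81 CPM (3 of 29 and 15 of 37 cells). A single control cell held 83.6% of its control counts, and without the top cell of each group Smug1 was at 1.22 and 31.1 CPM. The readers of methylated CpG had a median of -0.27, with 1 lower and 1 higher of 7 measured. The suppliers of methyl donors had a median of -0.34, with 2 lower and 1 higher of 10.

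Of 11 other PRC2 genes, 7 were measured, with a median of -0.67, 3 lower and 0 higher past 2-fold. Among them Jarid2, a PRC2 cofactor, was lower in all 4 sets, at 5.34 against 24.7 CPM, and was counted in 29 of 29 and 37 of 37 cells. Its count was fractional in 91.9% of all libraries that held one. Phf19, Epop and Ezhip had no count in any kept cell, and the span of Ezhip lies wholly within another gene, where the counting may leave reads out. Of 23 genes of PRC1, the complex that ubiquitinates histone H2A, 18 were measured, with a median of -0.49, 4 lower and 1 higher. That one was Scmh1, at 48 CPM in 22 of 29 control and 215 CPM in 36 of 37 RO-3306 cells, higher in all 4 sets, with fractional counts in 72.1% of all libraries that held one. Among 7 genes for enzymes that remove the Polycomb marks or for their partners, 2 were lower and 1 higher. The 2 lower ones were partners, and the histone H3 demethylases stayed within 2-fold. The higher one was Bap1, a deubiquitinase of histone H2A, at 4.23 and 9.88 CPM in 3 of 29 and 7 of 37 cells. For Bap1, control cell B4 held 86.6% and RO-3306 cell B10 66.3% of the counts of their groups, and without them the levels were 0.629 and 3.40 CPM.

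**Figure D4:**
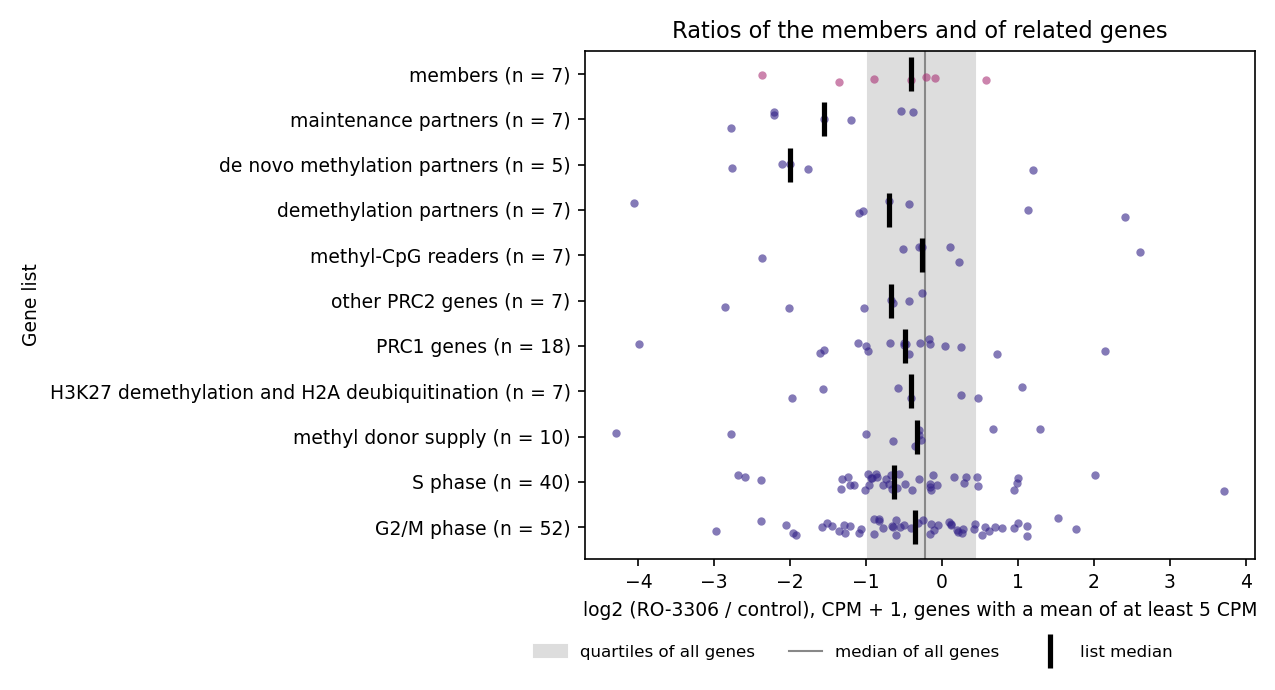
Log2 ratios of RO-3306 to control (CPM + 1) for the members and for lists of related genes, each point a gene of 5 CPM or more on average; black ticks are list medians and the grey band covers the quartiles of all genes. The members' median is -0.42, the lowest list median is that of the de novo methylation partners at -2.0, and every list has points on both sides of the all-gene median of -0.22 except the maintenance partners and other PRC2 genes. The 4 lower de novo methylation partners have mRNAs of 7142 bases or more, and length was not adjusted for here.

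Genes known to be silenced by these systems were mostly under 5 CPM. Of 12 germline genes that DNA methylation keeps off in somatic cells, 2 reached 5 CPM and 5 had no count in any kept cell (Dazl, Asz1, Tex101, Slc25a31 and Rhox5). Of the 2 measured, 1 was lower and 1 higher past 2-fold, against 24.2% and 12.2% of all genes. The lower one, Sycp3, was at 10.8 CPM for control and 0.862 CPM for RO-3306, from 1 cell in each group. Taf7l, an X-linked germline paralogue of a TFIID subunit, was counted in 0 of 29 control cells, which allows a share of up to 10.3%, and in 24 of 37 RO-3306 cells at 68.2 CPM (66.5 to 69.9). Against a floor of 3 counts over the control group it was at least 1501-fold higher, and it was higher in all 4 sets. At equal depth it was in 0 of 25 and 23 of 34 cells. Of 17 classical Polycomb targets, 3 reached 5 CPM, with 1 lower and 1 higher past 2-fold, and 5 had no count in any kept cell, among them Cdkn2b, Hoxa5 and Hoxa13. Hoxa5 and Cdkn2b lie wholly within spans of other genes, where the counting may leave reads out.

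The cell cycle lists stand beside the same shares of all genes, 24.2% lower and 12.2% higher past 2-fold. Of 42 S phase genes, 40 were measured, with a median of -0.63, 9 lower and 2 higher past 2-fold. Cdc6, which loads the replicative helicase, was at -2.39, and the helicase subunits Mcm6, Mcm4 and Mcm2 were at -1.34, -1.21 and -1.16, all lower in all 4 sets. The 52 G2/M genes had a median of -0.36, 14 lower and 4 higher. Among those with 1 sign in all 4 sets were Mki67 at -2.98, Hjurp at -1.58, Psrc1 at 1.52 and Rangap1 at -1.51. Tet3 at -2.37, Uhrf1 at -1.36 and Ezh2 at -0.89 lay below the S phase median, and Hells, Dnmt1, Eed and Suz12 above it, with Suz12 at 0.57. The part that cell cycle position has in the values of these genes was not tested.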

How the data were processed

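Each of the 96 libraries is 1 sorted cell, made into cDNA with SMART-seq and sequenced as single reads. The authors deposited 1 table of expected counts per cell, made with featureCounts 2.0.3 over whole gene spans of RefSeq GRCm39, with reads at several sites split into fractions, per the file headers. STAR and FastQC are named in the submitters' processing notes, and their versions are not given in the sources used here. Reads carry no molecular identifiers, so intervals cover counting error only.

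Counts of kept cells were summed per group and scaled to CPM. The log2 ratio adds 1 CPM to both groups, which understates changes of low genes. Intervals are exact Poisson for sums and Clopper-Pearson for shares, at 95%. Where the text says what a count of 0 allows, or gives a fold against it, the limit is instead 3 counts of the total. Fractional counts were rounded for intervals, thinning (639000 reads, 25 and 34 cells) and scaling factors. Thinning left out 4 control and 3 RO-3306 cells. Doublets were not sought, as every library came from a single dispensed cell. The mRNA lengths came by symbol from GENCODE M21 and covered 97.2% of 9374 genes. No kept libraries held identical values. The steps were tested on simulated counts. TMM (edgeR 4.0.16) and DESeq2 1.42.0 gave scaling alternatives only. The rest used Python 3.11.15.

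All 10 members are named. From each list the text names genes past 2-fold with the same sign in all 4 sets, at most 4 per list. The members and lists were chosen with earlier results of these data known. Uhrf1's partner Pcna, the germline gene Sycp3, the marker genes, and list genes without a count were named after their values were seen.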

Additional observations from a re-analysis of the deposited data

How the results depend on the processing

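The median log2 ratio of the 7 members was -0.42. Over the same 7 it became -0.21 with TMM and -0.18 with DESeq2 scaling, -0.12 with cells thinned to equal depth, 0.077 as a mean over cells, and 0.062 with genes of like mRNA length subtracted. Dnmt3a also reaches 5 CPM when cells are thinned or averaged, and over these 8 the medians were -0.35 and -0.28. A mean over cells without the cell above 20% mitochondrial counts, added after seeing the data, gave 0.11 over the 7 and -0.26 over the 8. It was -0.75, -0.55, -0.88 and -0.30 without set A, B, C and D, and -0.22 without the cell holding most counts of each gene. With a minimum of 1 CPM it was -0.89, and with none -0.96. The 2 members lower past 2-fold became 1 without set B and 1 after the length subtraction, 4 with a minimum of 1 CPM and 5 with none. They became 3 with thinned cells and in both means over cells (Dnmt3a added), without set C (Dnmt1 added) and without set D (Ezh2 added). The 0 members higher became 1 as a mean over all cells (Dnmt1, but 0 without the cell rich in mitochondrial counts), 1 without set B (Dnmt1), 1 without set D (Suz12) and 1 after the length subtraction (Suz12). That subtraction also lowered the percent of all genes lower past 2-fold from 24.2 to 15.2. Of 170 values of single members over 17 alternatives, 82 stayed within the counting interval of the value reported. Uhrf1, Tet2, Tet3 and Ezh2 kept a ratio below 0 in all 17. The causes were not tested.

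No paired analysis was possible because the replicate numbers follow accession order and no test was made. Limits are the single sample per treatment, the lettered sets of 5 to 11 cells whose meaning is not given, and the few cells behind Dnmt3a, Dnmt3b, Tet2 and Tet3.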

Other observations

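Among the libraries left out for low counts, 19 control libraries summed to 341166 counts. In 1 of them, C6, there were 118 counts of Dnmt3a, which is 346 CPM of that sum (286 to 414). The other members had at most 3 counts in these 19 libraries. In the 29 kept control cells Dnmt3a was likewise carried by 1 cell.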
